A study of Homo sapiens with 6 samples.

Results

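The genes described here encode subunits of dynein motors, subunits of dynactin, which works with dynein, and a dynein regulator. They were picked by name: their clusters are every deposited intronic cluster whose gene field read DYNC1I2, DYNC1H1, DYNC1LI1, DYNC1LI2, DYNC2H1, DCTN1, DCTN4 or PAFAH1B1, after repeated rows were dropped. The genes were 8 of the 11805 named alone in either list, and held 204 of 188027 F125A clusters and 461 of 366429 WT clusters. A cluster is a stretch of the genome covered by sequenced RNA, on 1 strand, inside an intron of a protein-coding gene. The group was put together with earlier results of these lists known, among them the counts of DYNC1I2, so its cluster counts are a description and carry no test.

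Cells with FLAG-Rbfox1(F125A), a form of the splicing factor with a phenylalanine of its RNA-binding domain changed to alanine, gave 2 libraries. Cells with FLAG-Rbfox1(WT) gave 3 libraries. All were HEK293 Flp-In, a human embryonic kidney line made to take up a transgene at a fixed place, and all carried the Rbfox2 knockout labelled KO#7, so every value comes from 1 knockout line. A further library, from that line with no transgene, was titled Control and was not analysed here. How it was used in making the lists is not stated in the labels. RNA that stayed bound to the tagged protein and its LASR partners, a large assembly of splicing regulators, and so escaped nuclease was sequenced.

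Each group is represented by 1 list of places on hg38, with no read counts or scores. Read depth is therefore unknown and replicates cannot be compared, and the exact binomial (Clopper-Pearson) 95% intervals below cover counting error only. The F125A list was the shorter, with 1.95 WT clusters for each F125A cluster, and median cluster lengths were 64 nt in the F125A list and 60 nt in the WT list. A larger number of clusters in a gene cannot be told apart from a larger amount of its RNA. Of 12 marker genes of other cell types, 8 had no cluster in either list, and the neuronal gene SYT1 had the most, with 15 F125A and 67 WT clusters.

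Cytoplasmic dynein is the motor that carries cargo along microtubules toward their minus ends. Its heavy chain holds the motor domain, the intermediate chains link it to dynactin, and the light intermediate chains bind the adaptors that choose cargo. Dynactin, built around an actin-like filament, makes the motor processive, and LIS1, the product of PAFAH1B1, binds the motor domain and helps assemble active complexes. Rbfox proteins bind GCAUG, most strongly UGCAUG, in introns next to regulated exons.

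The only clusters of these genes that lay whole within the 250 bases before an annotated start belonged to DCTN1. They are shown because one of these places was recovered with both proteins and holds the Rbfox pentamer. Sequence was at hand only for such stretches and the 50 bases after each start. DCTN1 lies on the minus strand of chromosome 2 and RefSeq gives it 3 starts. The window before start 3, the one farthest downstream, chr2:74374668-74374917 (GRCh38.p14, minus strand), follows with the bases inside clusters of either list in capitals, and then the 3 clusters by themselves with GCATG in capitals. All are written 5′ to 3′ as DNA on the strand of the gene.
DCTN1 window at start 3: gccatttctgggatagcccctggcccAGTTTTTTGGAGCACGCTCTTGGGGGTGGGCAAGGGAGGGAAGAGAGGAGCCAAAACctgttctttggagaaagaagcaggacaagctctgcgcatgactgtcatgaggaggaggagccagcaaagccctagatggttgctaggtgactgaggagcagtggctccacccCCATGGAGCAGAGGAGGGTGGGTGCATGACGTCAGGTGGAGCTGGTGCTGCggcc
DCTN1 F125A cluster chr2:74374683-74374718: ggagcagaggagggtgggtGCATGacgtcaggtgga
DCTN1 WT cluster chr2:74374672-74374722: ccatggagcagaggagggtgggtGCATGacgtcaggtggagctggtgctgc
DCTN1 WT cluster chr2:74374835-74374891: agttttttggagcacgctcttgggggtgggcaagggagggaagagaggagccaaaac

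The F125A cluster, of 36 nt, lay wholly inside the first of the WT clusters, of 51 nt, and both contain GCATG preceded by T. The other WT cluster, of 57 nt, had no F125A partner and holds TTTTT and GGGGG but no GCATG. Among all RefSeq windows of this kind, 16.5% of 35116 hold GCATG on the strand of the gene and 25.1% on either strand. TTTTT stood on the gene strand of 22.7% of windows and GGGGG on that of 35.7%, or 36.6% and 55.3% on either strand, and GGGGG can share its last base with GCATG while TTTTT cannot overlap it. Among the 12 windows of the 8 genes, 3 hold GCATG on the gene strand, those of DYNC1LI2, PAFAH1B1 and start 3 of DCTN1. In that DCTN1 window the pentamer stands at 132 and 32 bases before the start, and the clusters took in only the nearer copy. A match in these letters is a description and does not show that the protein was bound there.

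DYNC1I2, the more widely expressed of the paired intermediate chain genes, stood apart from the other members. It had 10 F125A and 78 WT clusters, a WT to F125A quotient of 7.80. The log2 ratio of F125A to WT clusters, taken after adding 1 to each count and relative to the totals of the lists, was -1.88 (exact interval -3.12 to -1.05), or 3.69-fold lower in F125A. Among the 5626 genes whose clusters in the lists summed to 20 or more, 141 (2.51%) lay 2-fold or more lower in F125A and 112 (1.99%) 2-fold or more higher, and 18 genes, DYNC1I2 included, had a ratio as low as this one. Among the 281 genes of similar length DYNC1I2 had the lowest ratio, a difference of -1.95 from their median on the log2 scale. Measured that way, 2.1% of genes were 2-fold or more lower and 0.462% higher. A minimum of 10 clusters gave 3.47% lower and 3.61% higher of 7572 genes, a change that leaves the ratio of DYNC1I2 itself as it was. With 5 added to each count 0.64% were lower and 1.99% higher of 5626, and DYNC1I2 lay at -1.51. Of the members, 1 of 8 was past 2-fold, and since this gene brought the group to attention that share carries no weight.

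**Figure D1:**
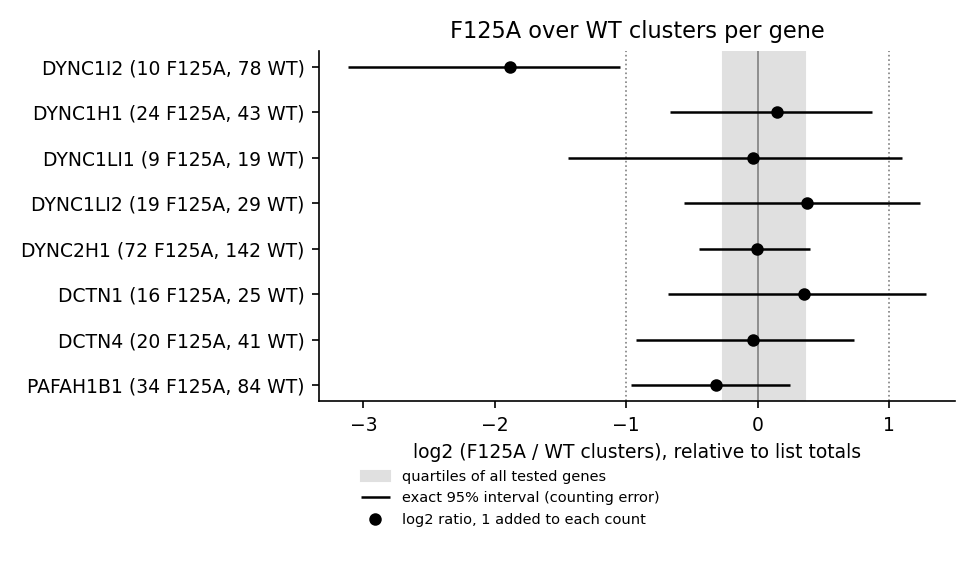
Log2 ratio of F125A to WT clusters relative to the list totals (x axis) for each of the 8 genes (rows), with points for the ratio, lines for the exact 95% interval and a grey band for the quartiles of 5626 genes, -0.26 to 0.36. DYNC1I2 lies at -1.88, left of the dotted line for 2-fold, and the other 7 lie between -0.32 and 0.38.

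The low ratio of DYNC1I2 came mostly from the 5′ part of the gene. The gene covers 62.7 kb of the plus strand of chromosome 2 (171687469 to 171750158). When it was divided into 5 equal parts from 5′ to 3′, F125A clusters numbered 1, 0, 5, 3 and 1 and WT clusters 23, 29, 11, 10 and 5. The first 2 parts thus held 10.0% of the gene's F125A clusters and 66.7% of its WT clusters, whereas over all genes with a known place they held 50.5% of F125A and 49.3% of WT clusters.

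In the first 2 parts of DYNC1I2 the log2 ratio was -3.77, from 1 F125A and 52 WT clusters (interval -10.07 to -2.20). With 5 added to each count in place of 1 it was -2.29. In the last 3 parts it was -0.47, from 9 and 26 clusters, and the interval of -1.85 to 0.57 held 0. Of 3394 genes with at least 20 clusters in their first 2 parts, 87 (2.56%) were 2-fold or more lower and 1.94% higher in F125A there, and besides DYNC1I2 only PRR16, named after its value was seen, had a ratio as low. In the last 3 parts, 647 of 3774 genes had a ratio as low as that of DYNC1I2, and 3.87% were 2-fold or more lower and 1.56% higher in F125A. The difference between the parts of DYNC1I2 was not tested.

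**Figure D2:**
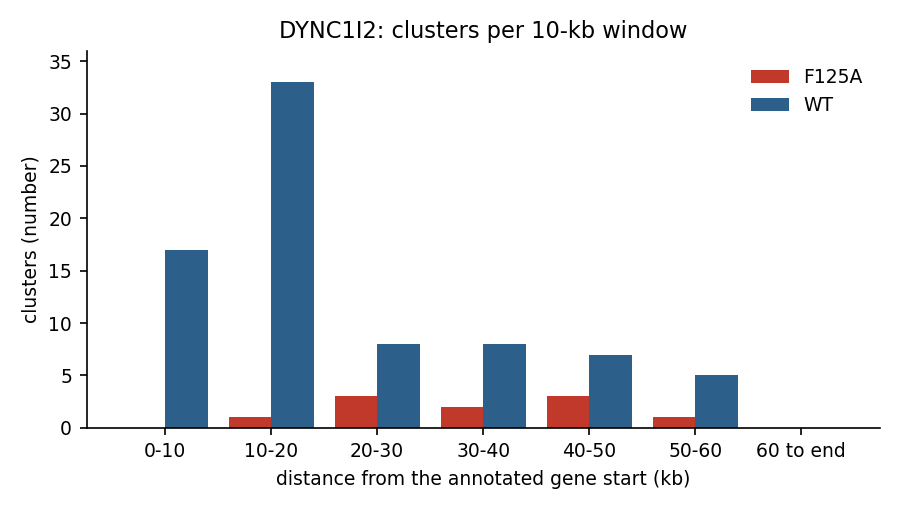
Number of clusters (y axis) in each 10-kb window of DYNC1I2 by distance from the annotated gene start (x axis), with F125A bars left of WT bars. The window of 10 to 20 kb holds 1 F125A and 33 WT clusters, and the last window, 60 kb to the end, holds none.

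WT clusters were packed in DYNC1I2 from 3.90 kb after the annotated start onward. The first 10 kb held no F125A and 17 WT clusters and the next 10 kb 1 and 33. From 20 kb onward the windows of 10 kb held 3 and 8, 2 and 8, 3 and 7, and 1 and 5. Over the whole lists there were 1.95 WT clusters for each F125A cluster, so the counts past 20 kb lie closer to the list totals than those before it. Neighbouring F125A clusters of the gene were a median of 2826 nt apart and neighbouring WT clusters 227 nt apart, and 22 of the gaps between WT clusters were shorter than 50 nt. With clusters closer than 50 nt merged, 10 F125A and 56 WT clusters remained and the ratio was -1.45.

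The places recovered with F125A in this gene were all places recovered with WT too. Each of the 10 F125A clusters shared 1 nt or more with a WT cluster (100%, interval 69.2 to 100%). That interval holds the 85.5% of F125A clusters over the whole list, so the share could not be told from that of the list. In the other direction 10 of 78 WT clusters (12.8%, 6.32 to 22.3%) had an F125A partner, against 45.2% over the whole list. The small number of F125A clusters in the gene limits this share. It restates the cluster counts and is not a separate result about places. The first shared place lay 12.1 kb from the start, at chr2:171699557-171699672 in the F125A list and chr2:171699553-171699668 in the WT list, each 116 nt long. The next, chr2:171712650-171712758, had the same bounds in both. Within the 10 shared places the F125A clusters had a median of 65.5 nt and the WT clusters 87.5 nt, and the WT cluster was the longer in 7. It was also more often the longer in DYNC1LI1 (6 of 8 pairs), DCTN1 (10 of 15) and DYNC1H1 (8 against 7). In DYNC1LI2, DYNC2H1, DCTN4 and PAFAH1B1 the F125A cluster was more often the longer. Pairs over all genes were not compared.

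Between these first shared places, from 12.4 to 25.2 kb, ran 31 consecutive WT clusters without an F125A partner. No F125A cluster named DYNC1I2 lay in that stretch. Of the 5626 genes, 4 had a run as long, DYNC1I2 itself, CACNA2D1 (32), STK32C (32) and PRR16 (47), the last 3 named after their values were seen. Among 1343 genes with a similar number of WT clusters (within 1.5 times) the median longest run was 7. Those genes were matched by WT count and not by F125A count. Few F125A clusters leave long runs, so the run is not separate from the low ratio of the gene. No sequence of this stretch was at hand. RefSeq's second start of DYNC1I2 lies 0.286 kb after the first, and all clusters of both lists lay after it.

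Genes next to DYNC1I2 on chromosome 2 had ratios nearer to 0. SLC25A12, 33.2 kb beyond its 3′ end, had 28 F125A and 58 WT clusters (log2 ratio -0.06, interval -0.79 to 0.59). HAT1, farther on, had 13 and 29 (-0.14), and METAP1D 5 and 18 (-0.70, interval -2.67 to 0.60). On the other side, CYBRD1, 129 kb away, had 4 and 8, too few for a ratio. DCAF17 had 8 and 21 (-0.33) and METTL8 28 and 49 (0.18). Of the 5 neighbours with a ratio 0 were past 2-fold, a count near the 2.51% lower and 1.99% higher of all tested genes. The interval of METAP1D also takes in the value of DYNC1I2, as does that of CYBRD1 (-2.22 to 1.86). Those of DCAF17 (-1.81 to 0.80) and HAT1 (-1.26 to 0.79) overlap the interval of DYNC1I2, while those of SLC25A12 and METTL8 do not.

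By cluster counts, the genes most like DYNC1I2 over the 2 lists were RSU1 (11 F125A and 66 WT clusters, a distance of 0.27 in log2 of clusters + 1), RB1 (13 and 69, 0.39) and SUGCT (12 and 62, 0.41). All 3 are longer, at 227, 178 and 904 kb. Per kb of gene they were ADI1 (4 and 22, 0.46), ZC3H15 (4 and 21, 0.50) and FSTL1 (13 and 55, 0.60). Only 2 points define each such pattern.

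DYNC1H1, the heavy chain that holds the motor, had 24 F125A and 43 WT clusters (log2 ratio 0.15, interval -0.66 to 0.87). The counts in 5 equal parts of its 91.9 kb on chromosome 14 (101964573 to 102056443) were 6, 8, 4, 3 and 3 for F125A and 16, 9, 8, 5 and 5 for WT. The first 2 parts held 58.3% of F125A and 58.1% of WT clusters. In both lists the first cluster began 0.883 kb from the start. A WT partner was found for 18 of the 24 F125A clusters (interval 53.3 to 90.2%), an interval that holds the 85.5% of the whole list. Its longest F125A cluster, of 137 nt at chr14:101986703-101986839, was among those without a partner. Within LOC107984661, a lncRNA annotated inside the gene, lay 2 F125A clusters and 1 WT cluster.

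The light intermediate chain genes, a pair of paralogs, differed in how densely they were covered. DYNC1LI1 on chromosome 3 (32525974 to 32570858) had 9 F125A and 19 WT clusters, that is 2.01 and 4.23 per 10 kb of gene. DYNC1LI2 on chromosome 16 (66720893 to 66751609) had 19 and 29, or 6.19 and 9.44 per 10 kb. The gene with the denser clusters was the shorter, 30.7 kb against 44.9 kb. Their log2 ratios were -0.04 (interval -1.44 to 1.10) and 0.38 (-0.56 to 1.24), intervals that overlap.

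The clusters also fell in different parts of these paralogs. In DYNC1LI2 the fourth of 5 equal parts held 9 of the F125A and 13 of the WT clusters, and the first 2 parts held 21.1% and 34.5%. In DYNC1LI1 the first 2 parts held 55.6% of F125A and 63.2% of WT clusters. Between 15.2 and 31.7 kb from the start of DYNC1LI1 there was no F125A cluster for 16.5 kb, while 4 WT clusters lay there, from 17.5 to 24.5 kb. F125A clusters of DYNC1LI2 had a median length of 79 nt and WT clusters 58 nt. In the 15 overlapping pairs of that gene the medians were 79 nt in each list, so the shorter WT median came with the 14 WT clusters that had no partner.

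DYNC2H1, the heavy chain of the dynein that moves cargo back along cilia, was the longest member, 370 kb on chromosome 11 (103109426 to 103479863), and held the most clusters, 72 F125A and 142 WT. Per 10 kb of gene this was 1.94 and 3.83, below DYNC1LI2 and the dynactin genes in both lists. Its log2 ratio was -0.01 (interval -0.45 to 0.40), and 0.30 relative to genes of similar length. Of its 72 F125A clusters 54 overlapped a WT cluster (interval 63.4 to 84.5%), and of its 142 WT clusters 55 an F125A cluster (38.7%, 30.7 to 47.3%). The F125A interval ended below the 85.5% of the whole list, which includes these clusters, and the WT interval held the 45.2% of the whole WT list. Such intervals were computed for each gene and each list, with no allowance for their number. The 5 equal parts held 17, 20, 19, 11 and 5 F125A clusters and 35, 27, 44, 22 and 14 WT clusters. Over all genes with a known place the last 2 parts also held the fewest, 17.7% and 11.9% of F125A and 18.1% and 12.1% of WT clusters. A window of 180 to 190 kb held the most WT clusters, 16, with 7 F125A clusters, and the window of 120 to 130 kb the most F125A clusters, 8. The 3 longest F125A clusters, of 167, 140 and 134 nt, had no WT partner, and the 3 longest WT clusters, the first of 130 nt, had no F125A partner.

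A place in DYNC2H1 may be uncertain, since its sequence resembles one elsewhere. The F125A cluster at chr11:103402531-103402609 and its WT partner at chr11:103402541-103402634 span the border of MTCO3P15 and MTATP6P15, pseudogene copies of mitochondrial genes inserted in the gene. Both clusters are on the plus strand, and the strand of the pseudogenes was not compared with it. Whether reads of the mitochondrial transcripts were placed there was therefore not tested. The treatment of reads with several places is not stated in the labels. The other pseudogenes of that insertion held no cluster.

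DCTN1, the large dynactin subunit that binds microtubules and the intermediate chains, had 16 F125A and 25 WT clusters (log2 ratio 0.35, interval -0.68 to 1.28). None of them lay in the first 2 of 5 equal parts of the annotated gene (chromosome 2, 74361155 to 74391866, minus strand), and the parts after these held 11, 4 and 1 F125A and 17, 7 and 1 WT clusters. The first cluster of each list began 13.0 kb from the annotated start, 1.45 kb beyond the second start that RefSeq gives, which lies 11.6 kb after the first. Between the second start and the third lay 7 F125A and 13 WT clusters, and after the third 9 and 12. The 250 bases before the second start are printed because no cluster named DCTN1 in either list lay between the first start and this one. The upstream part of DCTN1 also overlaps DCTN1-AS1, an antisense lncRNA, where no cluster named DCTN1 lay.
DCTN1 window at start 2, chr2:74380312-74380561, minus strand, GRCh38.p14: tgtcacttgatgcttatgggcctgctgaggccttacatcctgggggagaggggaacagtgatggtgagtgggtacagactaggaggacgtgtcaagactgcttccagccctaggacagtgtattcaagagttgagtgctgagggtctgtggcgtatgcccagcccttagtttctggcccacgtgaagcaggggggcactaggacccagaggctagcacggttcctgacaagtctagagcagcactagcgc

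The overlap between the lists in DCTN1 could not be told from that of the whole lists. Of its F125A clusters, 15 of 16 (93.8%, interval 69.8 to 99.8%) overlapped a WT cluster, against 85.5% over the whole F125A list. Of its WT clusters 15 of 25 (38.7 to 78.9%) overlapped an F125A cluster, against 45.2% over the whole WT list. The clusters were short, with medians of 49 nt for F125A and 57 nt for WT. The longest WT cluster, of 139 nt at chr2:74377899-74378037, had no F125A partner.

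DCTN4, the p62 subunit at the pointed end of dynactin, had 20 F125A and 41 WT clusters (log2 ratio -0.04, interval -0.92 to 0.73). It lies on chromosome 5 (150708440 to 150759017). In both lists the third of 5 equal parts held the most, 10 F125A and 16 WT clusters, and the last part held 0 and 2. A WT partner was found for 19 of 20 F125A clusters (interval 75.1 to 99.9%), which also holds the 85.5% of the whole list. The first cluster of each list lay close to the annotated start, 0.181 kb for F125A and 0.159 kb for WT, and this first WT cluster, of 117 nt, was the longest of the gene in its list.

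PAFAH1B1 encodes LIS1, whose loss on 1 allele causes lissencephaly, a defect of neuronal migration. It had 34 F125A and 84 WT clusters in its 92.4 kb on chromosome 17 (2593183 to 2685615), a log2 ratio of -0.32 (interval -0.96 to 0.25). The first 2 of 5 equal parts held 23.5% of F125A and 35.7% of WT clusters, with 8 and 30 clusters and a log2 ratio of -0.82 (interval -2.28 to 0.21), and the last 3 parts 26 and 54 (-0.06, interval -0.83 to 0.61). Both intervals held 0, and 150 of 3394 genes had a ratio as low in their first 2 parts. Its longest run of WT clusters without an F125A partner was 11, from 63.5 to 74.8 kb, and 635 of 5626 genes had a run as long, among them 198 of the 1262 genes with a similar number of WT clusters.

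The longest clusters of all 8 genes were in PAFAH1B1 near its 3′ end. The F125A cluster at chr17:2679276-2679510 was 235 nt long and was directly followed by one of 127 nt. The WT list had clusters of 203 nt at chr17:2679309-2679511 and of 122 nt just after it. The border between the neighbours thus differed by 1 nt between the lists. RN7SL608P, a pseudogene of the signal recognition particle RNA farther downstream, held no cluster, nor did the snoRNA gene LOC124904127 inside the gene.

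**Figure D3:**
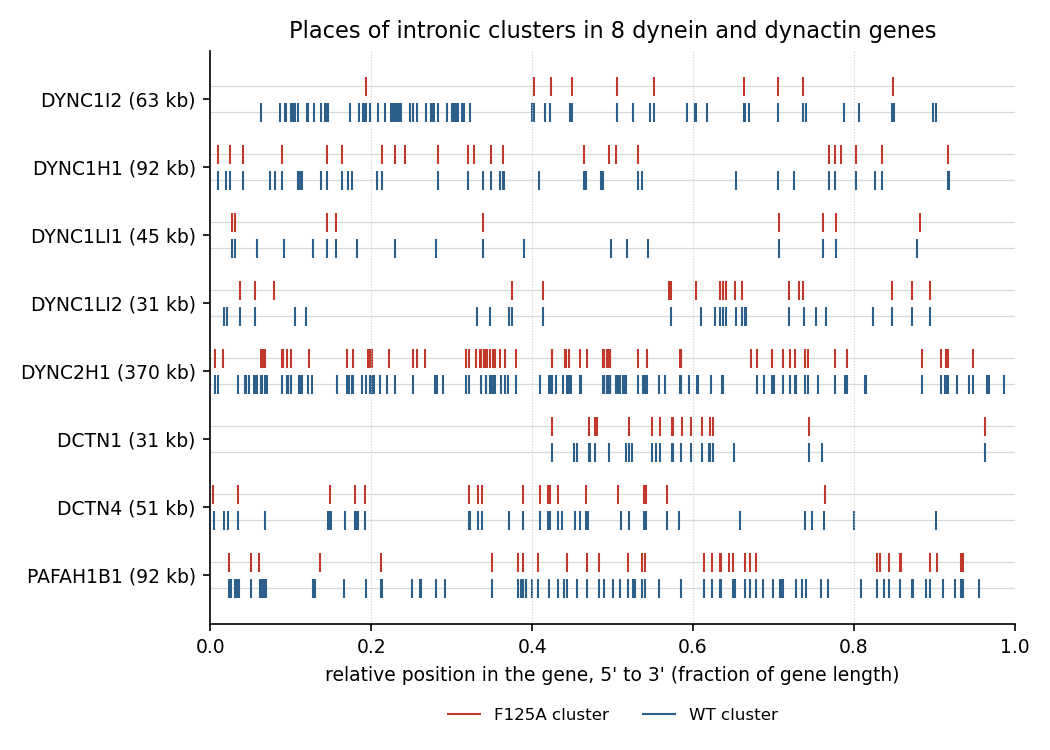
Each tick is the midpoint of a cluster along the gene, as a fraction of gene length from 5′ to 3′ (x axis), with F125A above WT for each of the 8 genes (rows). DYNC1I2 shows 1 F125A tick and 52 WT ticks in the first 2 of its 5 equal parts, and DCTN1 shows none in either list there.

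Across the other members the lists divided much as they did overall. Without DYNC1I2 the genes held 194 F125A and 383 WT clusters, or 1.97 WT clusters for each F125A cluster, and the log2 ratio of these sums was -0.01 (interval -0.28 to 0.23). Of the F125A clusters in these 7 genes 82.0% (interval 75.8 to 87.1%) overlapped a WT cluster, and of the WT clusters 41.8% (36.8 to 46.9%) an F125A cluster. The whole lists had 85.5% and 45.2%. The 7 ratios ran from -0.32 to 0.38, with 3 above 0 and 4 below, and the order within that range is not resolved, since each interval held 0. Over the 8 genes the median ratio was -0.02, against 0.04 over 5626 genes, of which 46.5% lay below 0.

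**Figure D4:**
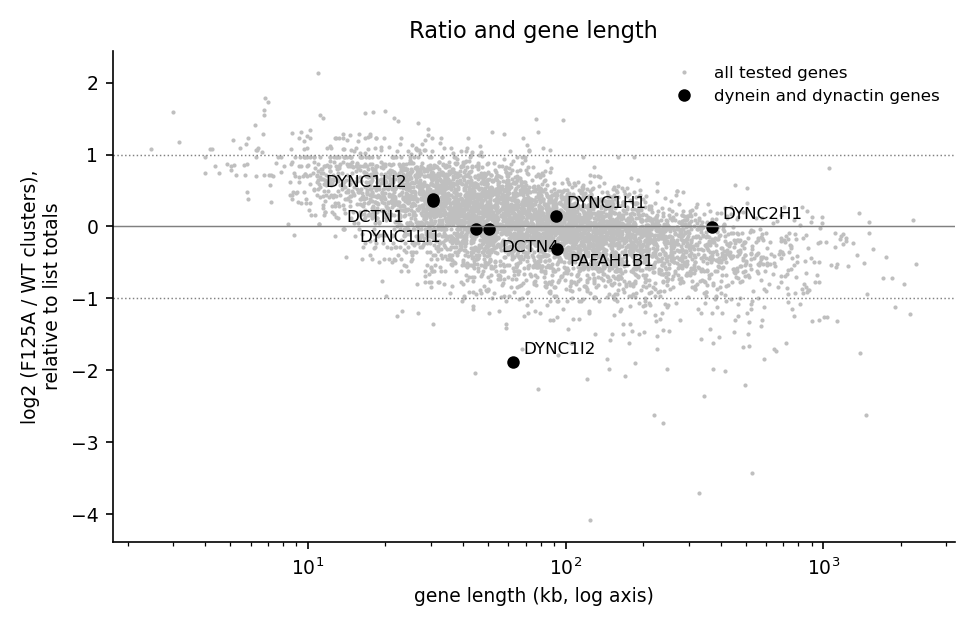
Log2 ratio of F125A to WT clusters relative to the list totals (y axis) against gene length (x axis, log scale) for 5626 genes in grey and the 8 genes in black, with dotted lines at 2-fold. Genes of the length of DCTN1 have a median of 0.33 and those of the length of DYNC2H1 one of -0.31, and DYNC1I2, at 62.7 kb and -1.88, lies below the genes of its length.

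Of 40 further genes for dynein subunits, dynactin subunits, regulators and adaptors, 36 had a cluster and 21 had at least 20, and 0 of these 21 were 2-fold or more lower or higher in F125A, a count near the 2.51% and 1.99% of all tested genes. The median log2 ratio of these 21 was 0.12, with 12 above and 9 below 0. The other 19 had too few clusters for a ratio. The light chains and roadblock subunits, which are short genes, had at most 17 clusters each and no ratio, and DYNLRB2 and DYNLT3 had none.

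Among the other dynein subunits, DYNC1I1, the paralog of DYNC1I2, had 10 F125A and 35 WT clusters (log2 ratio -0.75, interval -2.02 to 0.20) in a gene of 338 kb, and -0.44 relative to genes of similar length. DYNC2I1, an intermediate chain of the ciliary dynein, had 52 and 74 (0.46, interval -0.09 to 0.98). Neither interval excludes 0.

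Of the other dynactin subunits 5 had enough clusters for a ratio, and 4 of these were above 0 and 1 below (median 0.16). Relative to genes of similar length the split turned, with CAPZA1 (0.58) and CAPZA2 (0.59) above 0 and DCTN2 (-0.32), ACTR10 (-0.15) and CAPZB (-0.57) below. The capping protein subunits CAPZA1, with 31 F125A and 39 WT clusters (0.64, interval -0.10 to 1.35), and CAPZA2, with 27 and 32 (0.73), lay highest, and both intervals held 0. DCTN2, the p50 subunit dynamitin, had 11 and 20 (0.16), and ACTR10, an actin-related subunit at the pointed end, 8 and 15 (0.13). CAPZB, the partner of CAPZA1 and CAPZA2 in the heterodimer, lay lowest with 18 and 59 (-0.70, interval -1.60 to 0.03). ACTR1A, the actin-like subunit of the filament, had 4 and 10 and was not tested.

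Among 14 tested regulators and adaptors 7 lay above and 7 below 0. BICD1, an adaptor for Golgi and messenger RNA cargo, had 62 F125A and 126 WT clusters (-0.05, interval -0.52 to 0.39, and 0.26 relative to genes of similar length), and NINL, a centrosomal adaptor, 62 and 113 (0.11, -0.37 to 0.56). The Rab11 effector RAB11FIP3 had 36 and 50 (0.50), the kinesin and dynein adaptor MAPK8IP3 31 and 55 (0.16) and the microtubule tip protein CLIP1 31 and 46 (0.41). The LIS1 partners NDE1, with 20 and 43 (-0.10), and NDEL1, with 17 and 23 (0.55), lay on either side of 0. HOOK1, a cargo adaptor chosen after its value was seen, lay lowest with 5 and 20 (-0.84, interval -2.81 to 0.42).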

How the data were processed

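Nuclease-protected RNA from purified complexes was sequenced in 6 libraries. Per the labels' protocols, reverse transcription primers carried identifiers of 4 nt and inserts of 20 to 80 nt were selected. The tools listed are cutadapt and STAR, with hg38, per the submitters' processing notes. For versions, the cluster caller and its threshold, the use of the control and the way libraries were combined, nothing is stated in the labels. The deposited lists give, per the file headers, chromosome, start, end, gene, region and strand, so the values are positions in nt. They hold no per-sample columns.

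Coordinates are printed 1-based, from 0-based starts. Repeated rows were dropped (4851 in the F125A and 7029 in the WT list). Ratios were F125A over WT clusters, with 1 added, relative to list totals, for genes with at least 20 clusters, and similar length means the same of 20 length bins. Overlap needed 1 nt on the same strand. Gene bounds, starts and sequences came from RefSeq (GRCh38.p14), matched by symbol (11717 names) or synonym (79), with 9 names unmatched, and 12 windows matched the 8 genes. All 2814 overlapping windows of opposite strands were reverse complements, which fixes their orientation. Exon positions and the genome were not used here. With 1 list for each group, no test between groups could be run. Members, gene lists and the named-gene rule (all members, the 5 listed genes with most clusters, genes past 2-fold, and the nearest by count) were chosen with earlier results of these data known, and the parts of DYNC1I2, runs and neighbours were examined after its values were seen. Some genes of the lists are named beyond that rule, by role. The counting was tested on simulated data. Python 3.11.15, pandas 2.3.3 and scipy 1.17.1 were used.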

Additional observations from a re-analysis of the deposited data

How the results depend on the processing

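Of 100 alternative values, 95 stayed within the exact interval of the reported value or, for counts of genes, within 1.5 times, and none that was past 2-fold turned its sign. Some of the 95 could not have left the interval. Keeping repeated rows, dropping a block of rows present in each list, and subtracting the median of all tested genes (0.04) gave 8 values each. Each of these changes shifted all 8 ratios by the same small amount, and no cluster of the 8 genes lay in that block. Intervals from small counts are also wide, such as -10.07 to -2.20 for the first 2 parts of DYNC1I2. Staying within such an interval is a weak check. The 5 values outside were the following. Counting an F125A cluster as shared when a WT cluster lay within 50 nt gave 100% for DYNC1LI1 and 100% for DCTN1. A minimum of 10 clusters put 263 genes 2-fold or more lower and 273 higher in F125A, and 5 added to each count put 36 genes lower. The ratio of DYNC1I2 ranged from -1.95, counted in covered nt, to -1.45, with close clusters merged. Ratios near 0 of DYNC1LI1, DCTN4 and DYNC2H1 took either sign among the alternatives. No paired analysis was possible because the lists do not separate the libraries, and leaving out a library was not possible for the same reason. The planned share of clusters holding GCATG was not run, since no genome was used here. Alternatives for the parts of DYNC1I2 and for clusters inside other annotated genes were chosen after seeing the data. Without those clusters DYNC1H1 lay at 0.06 and DYNC2H1 at -0.02. What depth limits is unknown, because the lists hold no reads.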

Other observations

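The RefSeq windows, here from 250 bases before to 50 after each annotated start, allow the pentamer to be counted in the few clusters of any gene that lie whole within one. GCATG stood on the gene strand in 19 of 590 such F125A clusters (3.22%, exact interval 1.95 to 4.98%) and in 68 of 683 such WT clusters (9.96%, 7.81 to 12.5%). TTTTT stood in 6.78% of F125A and 9.96% of WT clusters, and GGGGG in 58.5% and 48.8%. These clusters lie at annotated starts, of which many are starts inside a longer gene, and are a small part of each list, so the shares need not hold for introns at large. The DCTN1 cluster printed above is 1 of the 19 F125A clusters with the pentamer.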
